A study of Homo sapiens with 18 samples.

Results

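MHC class I antigen presentation was followed through 9 genes: the heavy chains HLA-B, HLA-C, HLA-E and HLA-F, their light chain B2M, the peptide transporter subunits TAP1 and TAP2, the loading protein TAPBP (tapasin) and the transcriptional activator NLRC5. They were taken by gene symbol from the deposited table of 17017 genes, and all 9 were present in it. Most nucleated cells use this pathway to display short peptides from its own proteins on the surface, where CD8 T cells and natural killer cells inspect them. Peptides cut by the proteasome are pumped into the endoplasmic reticulum by the TAP1-TAP2 transporter, tapasin bridges the transporter to empty heavy chain-B2M dimers, and loaded complexes travel to the surface. NLRC5, with RFX and NF-Y factors, acts at a conserved element of class I promoters, and interferon-regulated factors and NF-kB act at elements beside it. Loss of class I display is a known route by which tumours, breast carcinomas included, avoid T cells.

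The cells were MDA-MB-231, an established human line of triple-negative breast carcinoma, in which lentiviral short hairpin RNAs were directed against fibrillarin (FBL), the enzyme that methylates ribosomal RNA. The 3 treatments were SC, read here as the scramble control, and the hairpin groups SH2 and SH3. The protocols number the 2 hairpins as knockdowns, and the labels do not tie those numbers to SH2 or SH3, so the label names are kept. Cells of all groups, SC included, carried a lentiviral vector, were selected with puromycin for 96 h and received cycloheximide before lysis. Each treatment had 3 input libraries of cytoplasmic RNA (IN) and 3 libraries of ribosome-protected footprints (RPF), 18 in all, and no label states whether replicates were separate cultures, so p-values measure the spread between these libraries, which may be technical.

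The input libraries held 23469830 to 27629488 counts and the footprint libraries 1662705 to 6098648. FBL itself stood at 349 to 421 CPM (counts relative to the TMM-scaled library total) in SC input RNA, at 1.26 to 11.2 CPM in SH2 and at 2.95 to 4.15 CPM in SH3. Of markers of the line, ESR1 and PGR had at most 2 counts in any input library and CDH1 had at most 11, whereas EPCAM, also low in this line, had 125 to 218 counts. The summed level of 6 high markers (VIM, CD44, KRT18, LGALS1, CAV1 and AXL) was 7851 to 9713 CPM in SC, 9017 to 10236 CPM in SH2 and 6929 to 8073 CPM in SH3. VIM alone averaged 5579 CPM in SC, so the sum hides changes of single markers. Log2 changes against SC that passed the RNA test described below were -0.60 in SH2 and -1.17 in SH3 for CAV1. AXL had -0.77 in SH2, LGALS1 -1.03 in SH3, CD44 0.68 in SH2, and KRT18 0.41 in SH2 and 0.46 in SH3. The 6 blood cell markers checked, whose cells carry much class I, summed to 6.45 to 12.3 CPM in SC, 10.7 to 12.2 CPM in SH2 and 5.12 to 7.12 CPM in SH3. Among them CD3E had at most 1 count in any input library, and PTPRC (CD45) had 29 to 36 counts in SC and 4 to 14 in the hairpin groups.

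The promoters of these genes are shown so that the elements on which class I regulators act can be read beside the changes that follow. RefSeq (GRCh38.p14) gave a promoter window for 7 of the 9 genes. HLA-E and NLRC5 are named only. Each sequence runs 5′ to 3′ on the gene's own strand and lies within 250 bases before the first listed start, and capitals mark matches to the motifs searched on both strands. The motifs were CCAAT (the NF-Y box), TGACG (a cyclic AMP response half-site), GAAANNGAAA and the shorter GAANNGAAA (paired interferon-regulatory factor cores), and GGGNNTTNCC (an NF-kB form).
HLA-B, chr6:31357226-31357361, minus strand: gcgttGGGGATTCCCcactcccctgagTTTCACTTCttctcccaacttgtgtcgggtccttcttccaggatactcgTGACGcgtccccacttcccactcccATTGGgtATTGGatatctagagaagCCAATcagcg
HLA-C, chr6:31272139-31272289, minus strand: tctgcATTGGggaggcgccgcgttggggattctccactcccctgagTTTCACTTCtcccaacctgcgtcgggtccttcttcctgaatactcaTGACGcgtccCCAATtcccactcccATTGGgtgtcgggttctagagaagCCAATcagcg
HLA-F, chr6:29723273-29723386, plus strand: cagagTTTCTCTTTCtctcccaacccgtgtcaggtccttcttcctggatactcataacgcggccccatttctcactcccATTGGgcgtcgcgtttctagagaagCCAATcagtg
B2M, chr15:44711368-44711477, plus strand: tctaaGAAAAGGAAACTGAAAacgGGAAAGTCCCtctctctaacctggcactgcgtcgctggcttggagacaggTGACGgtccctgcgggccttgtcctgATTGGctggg
TAP1, chr6:32853762-32853954, minus strand: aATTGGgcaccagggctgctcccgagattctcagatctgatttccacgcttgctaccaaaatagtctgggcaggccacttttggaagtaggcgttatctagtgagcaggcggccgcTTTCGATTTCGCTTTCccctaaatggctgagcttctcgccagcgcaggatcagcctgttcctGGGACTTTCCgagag
TAP2, chr6:32838765-32838807, minus strand: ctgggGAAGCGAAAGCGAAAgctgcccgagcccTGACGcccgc
TAPBP, chr6:33314079-33314139, minus strand: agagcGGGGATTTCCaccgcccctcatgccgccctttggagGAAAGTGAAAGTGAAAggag

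Of 34796 distinct promoter windows of that length, 32% held CCAAT, 21.2% held TGACG, 3.02% held GAAANNGAAA, 6.56% held GAANNGAAA and 5.06% held GGGNNTTNCC. CCAAT was found 3 times in the HLA-B window, 4 times in HLA-C, 2 times in HLA-F and 1 time each in B2M and TAP1. The TAP1 match lay at position -249 from the start, at the edge of the window, and that of B2M at -49. A second listed TAP1 start had no match to any of the motifs. TGACG was found 1 time each in HLA-B, HLA-C, B2M and TAP2. GAAANNGAAA was present 2 times each in B2M, TAP1 and TAPBP and 1 time each in HLA-F and TAP2, where matches can overlap. HLA-B and HLA-C held the shorter GAANNGAAA, as did TAP2, where it overlaps the longer form. GGGNNTTNCC was found in HLA-B, B2M, TAP1 and TAPBP, with no match to these letters in HLA-C, HLA-F and TAP2. A match is a string of letters in the reference, and no binding was measured. HLA-C and HLA-B are neighbouring protein-coding genes on chromosome 6, and TAP2, PSMB8, TAP1 and PSMB9 follow one another there, while B2M lies on chromosome 15 and NLRC5 on chromosome 16.

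In cytoplasmic RNA the heavy chains HLA-B, HLA-C and HLA-F rose several-fold in both hairpin groups, tapasin rose less, and the light chain B2M did not pass the test in either. Against SC, 6 of the 9 genes were called higher in SH2 (HLA-B, HLA-C, HLA-E, HLA-F, TAP1 and TAPBP) and 7 in SH3 (the same 6 and NLRC5), with none called lower. A gene was called at a Benjamini-Hochberg adjusted p under 0.05 in edgeR's quasi-likelihood test over 12710 genes. Calls were common across all genes. The share of tested genes called was 61.4% for SH2, 31.1% upward and 30.4% downward, and 53.0% for SH3, 27.8% upward and 25.2% downward, so the sizes say more than the counts. The median log2 change of the 9 genes was 0.46 in SH2 and 0.50 in SH3, beside 0.012 and 0.034 over all genes tested. SH2 and SH3 are compared with the same 3 SC libraries. In bulk libraries a change in RNA per cell and a change in the make-up of the cells cannot be told apart.

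HLA-B, a classical heavy chain that presents peptides to CD8 T cells, stood at 107, 128 and 97.2 CPM in the 3 SC input libraries, at 645, 448 and 507 CPM in SH2 and at 641, 525 and 520 CPM in SH3. Every hairpin library lay above every SC library by a wide margin. The log2 change was 2.27 (SE 0.15) in SH2, a fold of 4.82 with adjusted p = 4.60e-08, and 2.34 (SE 0.15) in SH3, a fold of 5.08 with adjusted p = 1.05e-07. These changes placed HLA-B at rank 103 from the top of 12710 genes in SH2 and at rank 48 in SH3.

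HLA-C, a classical chain that also serves as a ligand of natural killer cell receptors, had 95.4, 101 and 80.2 CPM in SC, 401, 289 and 360 CPM in SH2 and 335, 294 and 296 CPM in SH3. The hairpin libraries again did not overlap SC. Its log2 change was 1.92 (SE 0.13, adjusted p = 5.83e-08) in SH2 and 1.74 (SE 0.13, adjusted p = 3.20e-07) in SH3, folds of 3.80 and 3.34.

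HLA-F, a chain expressed at low levels in most cells, was close to silent in SC, with 4, 12 and 12 counts or 0.163, 0.494 and 0.472 CPM. It reached 6.39, 4.36 and 4.45 CPM in SH2 and 3.56, 3.23 and 3.91 CPM in SH3. Its log2 change was the largest of the 9 in both hairpin groups, 3.73 (SE 0.31, adjusted p = 3.58e-07) in SH2 and 3.23 (SE 0.32, adjusted p = 3.03e-06) in SH3, folds of 13.3 and 9.35, and it held rank 9 from the top in each. The level remained far under that of the other heavy chains in counts. HLA-F passed the filter on low counts in 2 SC, 3 SH2 and 3 SH3 input libraries.

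HLA-E, which shows leader peptides of other class I chains to the NKG2A receptor, changed little beside the other 3 heavy chains. It measured 126, 112 and 98.4 CPM in SC, 159, 124 and 135 CPM in SH2 and 156, 134 and 127 CPM in SH3. One SH2 library fell within the SC range, and the lowest SH3 library lay just above the highest SC library. The log2 change was 0.32 (SE 0.12, adjusted p = 0.0344) in SH2 and 0.32 (SE 0.12, adjusted p = 0.0396) in SH3. Leaving out a library ended the SH2 call for SC replicate 2 (adjusted p = 0.0679), SC replicate 3 (0.161), SH2 replicate 1 (0.159) and SH2 replicate 3 (0.0774), and the SH3 call for SC replicates 2 (0.0754) and 3 (0.176) and SH3 replicates 1 (0.267), 2 (0.0975) and 3 (0.0590).

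B2M, the invariant light chain that every class I heavy chain needs to reach the surface, was abundant throughout. Its RNA stood at 423, 390 and 364 CPM in SC, 490, 445 and 370 CPM in SH2 and 477, 412 and 433 CPM in SH3. The groups overlapped. The log2 change was 0.15 (SE 0.11, adjusted p = 0.265) in SH2 and 0.17 (SE 0.11, adjusted p = 0.223) in SH3, neither past the test.

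The peptide transporter subunits had smaller RNA changes than HLA-B, HLA-C and HLA-F. TAP1 RNA had 90.5, 68.9 and 61.6 CPM in SC, 119, 94.8 and 89.4 CPM in SH2 and 114, 96.3 and 84.3 CPM in SH3, with the highest SC library inside the range of both hairpin groups. Its log2 change was 0.46 (SE 0.15, adjusted p = 0.0191) in SH2 and 0.42 (SE 0.15, adjusted p = 0.0352) in SH3. The TAP1 call in SH2 was lost without SC replicate 2 (adjusted p = 0.0580), SC replicate 3 (0.0958) or SH2 replicate 1 (0.0947), and that in SH3 without SC replicate 2 (0.0940), SC replicate 3 (0.155), SH3 replicate 1 (0.224) or SH3 replicate 2 (0.0939). TAP2, its partner subunit, had 13.6, 11.8 and 11.5 CPM in SC, 14.7, 16.0 and 13.9 CPM in SH2 and 14.0, 15.1 and 13.8 CPM in SH3. Neither hairpin group of TAP2 overlapped SC, although they overlapped each other, and the changes of 0.27 (SE 0.12, adjusted p = 0.0628) and 0.21 (SE 0.12, adjusted p = 0.155) did not pass the test.

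TAPBP, which holds empty class I molecules at the transporter, rose in both hairpin groups without overlap with SC. It had 234, 175 and 169 CPM in SC, 441, 357 and 426 CPM in SH2 and 311, 279 and 245 CPM in SH3. The log2 change was 1.08 (SE 0.14, adjusted p = 1.19e-05) in SH2, a fold of 2.12, and 0.53 (SE 0.13, adjusted p = 0.00434) in SH3, a fold of 1.45.

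NLRC5, the activator that recruits transcription to class I promoters, was not called in SH2. Its RNA had 27.2, 32.2 and 29.6 CPM in SC, 34.0, 27.6 and 33.1 CPM in SH2 and 46.2, 37.3 and 42.3 CPM in SH3. SH2 overlapped SC, whereas all 3 SH3 libraries lay above it. The log2 change was 0.090 (SE 0.12, adjusted p = 0.521) in SH2 and 0.50 (SE 0.12, adjusted p = 0.00271) in SH3.

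**Figure D1:**
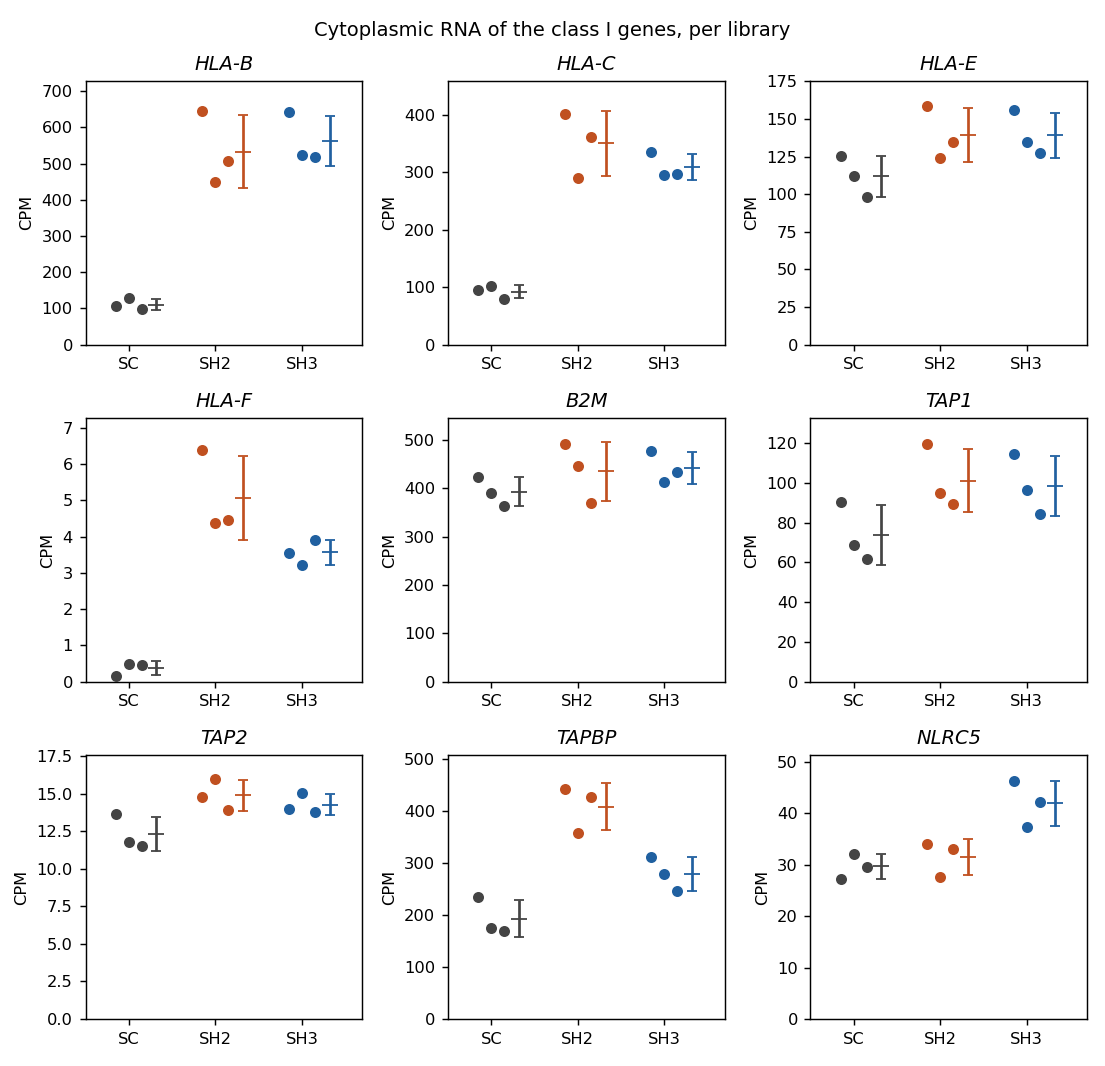
Cytoplasmic RNA of each of the 9 genes in CPM on the vertical axis, for the SC, SH2 and SH3 groups on the horizontal axis. Dots are the 3 libraries of a group, and the bar beside them is the mean ± SD. HLA-B, HLA-C, HLA-F and TAPBP stand above SC in all hairpin libraries, while B2M overlaps between groups and NLRC5 is higher in SH3 alone.

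The near-identical heavy chain genes share stretches of sequence, and how reads matching several of them were assigned is not given in the sources used here, so the split between HLA-B, HLA-C, HLA-E and HLA-F is uncertain. Summing the counts of the 4 genes into 1 feature avoids the split among them. The sum rose by a log2 change of 1.71 (adjusted p = 2.07e-07) in SH2 and 1.69 (adjusted p = 5.33e-07) in SH3 in RNA. In the authors' deposited table, the log2 change of HLA-B RNA was 2.25 in SH2 and 2.32 in SH3. For HLA-F RNA the authors' deposited table gave 3.73 and 3.22, and for TAPBP RNA it gave 1.07 and 0.51. HLA-E in SH3 had an adjusted p of 0.0548 in the authors' deposited table, above the threshold used here.

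Ribosome footprints, the fragments of mRNA covered by ribosomes, were higher in both hairpin groups for HLA-B, HLA-C and TAPBP. HLA-F passed the low-count filter in 0 SC, 3 SH2 and 2 SH3 footprint libraries, so it entered the test only through the hairpin groups, and its footprints are given as counts with no call. Of the other 8 genes, 4 were called higher in SH2 (HLA-B, HLA-C, TAP2 and TAPBP) and 3 in SH3 (HLA-B, HLA-C and TAPBP), and none was called lower. Over the 10345 genes tested, the share called was 44.2% for SH2, 21.0% upward and 23.2% downward, and 35.9% for SH3, 16.9% upward and 19.0% downward.

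HLA-B footprints stood at 120, 112 and 123 CPM in SC, 420, 592 and 481 CPM in SH2 and 580, 507 and 593 CPM in SH3. No hairpin library overlapped SC, and the log2 changes were 2.07 (SE 0.15, adjusted p = 1.48e-07) and 2.24 (SE 0.15, adjusted p = 1.76e-07). HLA-C footprints had 99.0, 83.8 and 74.7 CPM in SC, 209, 269 and 236 CPM in SH2 and 207, 177 and 192 CPM in SH3. Their log2 changes of 1.47 (SE 0.15, adjusted p = 2.43e-06) and 1.16 (SE 0.15, adjusted p = 3.85e-05) were numerically smaller than those of HLA-C RNA. HLA-F had only 5, 1 and 6 footprint counts in SC, 17, 22 and 19 in SH2 and 7, 8 and 16 in SH3. The log2 differences were 2.74 (SE 0.41) in SH2 and 2.26 (SE 0.46) in SH3, given without a test for the reason above.

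HLA-E footprints were at 153, 142 and 172 CPM in SC, 134, 174 and 163 CPM in SH2 and 181, 157 and 163 CPM in SH3, with complete overlap. The changes were 0.012 (SE 0.14, adjusted p = 0.953) and 0.096 (SE 0.14, adjusted p = 0.627). B2M had the highest footprint level of the 9 genes in CPM, a level that is not per length, with 973, 1053 and 959 CPM in SC, 1212, 1395 and 995 CPM in SH2 and 1119, 1033 and 823 CPM in SH3. Its groups overlapped, and its changes of 0.27 (SE 0.15, adjusted p = 0.147) and -0.0050 (SE 0.15, adjusted p = 0.982) did not pass the test.

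TAPBP footprints rose from 99.5, 138 and 114 CPM in SC to 256, 324 and 287 CPM in SH2 and 174, 192 and 193 CPM in SH3. The log2 changes were 1.31 (SE 0.15, adjusted p = 6.76e-06) and 0.68 (SE 0.15, adjusted p = 0.00229), with no overlap. TAP2 footprints were sparse, with 26, 17 and 32 counts in SC, 24, 57 and 39 in SH2 and 12, 18 and 13 in SH3. Scaled, these were 4.22, 7.16 and 5.68 CPM in SC, 8.89, 13.3 and 12.6 CPM in SH2 and 7.02, 6.16 and 4.56 CPM in SH3, so that only SH2 lay above SC. The TAP2 log2 change was 1.10 (SE 0.28, adjusted p = 0.00463) in SH2 and 0.090 (SE 0.32, adjusted p = 0.852) in SH3.

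TAP1 footprints spread widely within SC, at 33.1, 83.4 and 49.7 CPM, and had 59.6, 96.5 and 60.9 CPM in SH2 and 67.3, 48.3 and 43.8 CPM in SH3. Neither change passed the test, with 0.44 (SE 0.27, adjusted p = 0.207) and -0.036 (SE 0.28, adjusted p = 0.930). Without SC replicate 2, the highest SC library, the TAP1 change in SH2 was 0.82 with adjusted p = 0.00801. NLRC5 footprints had 11.04, 12.2 and 11.4 CPM in SC, 6.67, 10.96 and 11.007 CPM in SH2 and 16.4, 16.8 and 15.8 CPM in SH3. The SH2 libraries of NLRC5 all lay below the lowest SC library, 2 of them only just, and the SH3 libraries all lay above the highest. Neither change passed the test, with -0.24 (SE 0.23, adjusted p = 0.420) and 0.51 (SE 0.23, adjusted p = 0.0918).

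**Figure D2:**
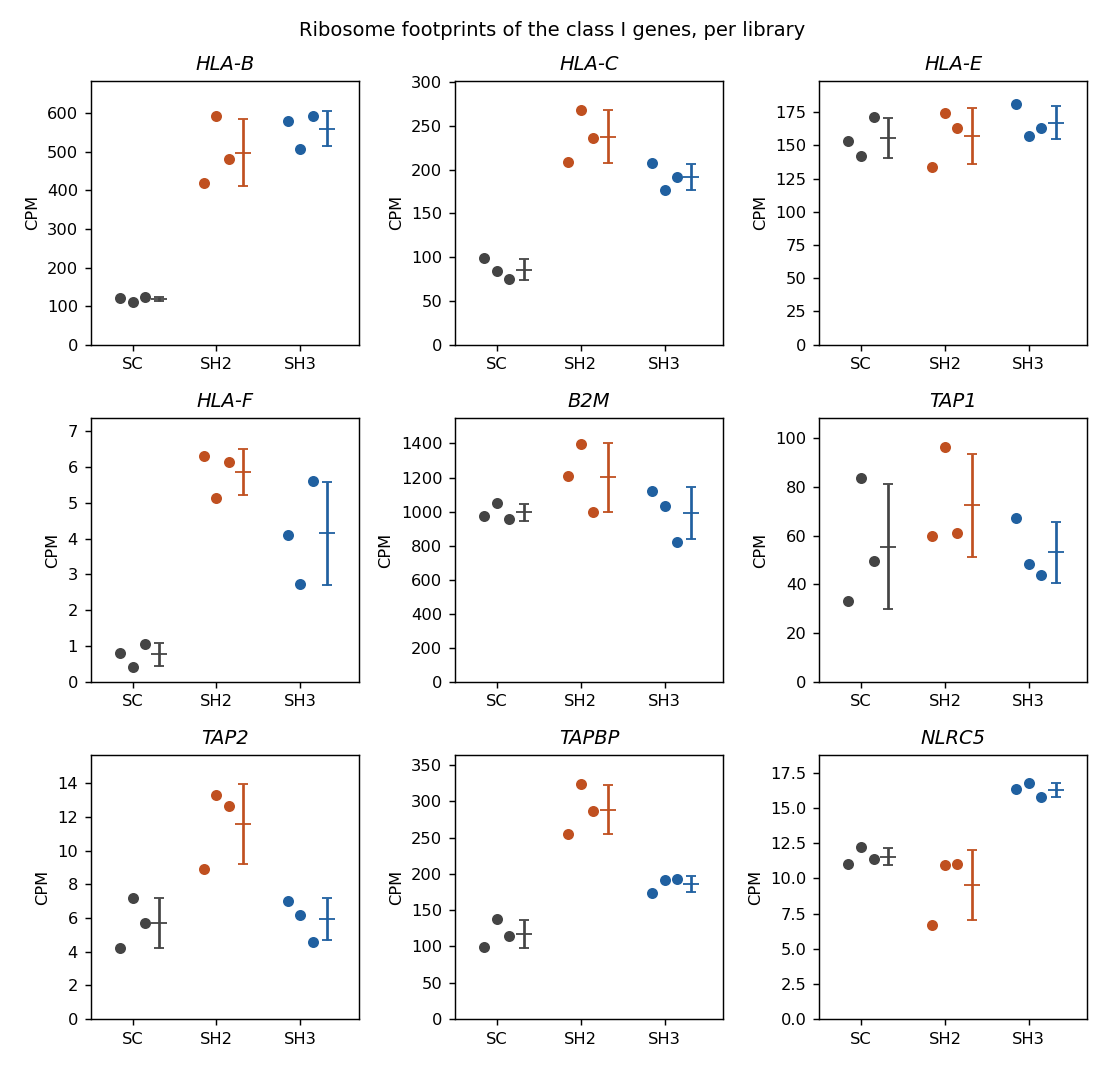
Ribosome footprints of each of the 9 genes in CPM on the vertical axis, for SC, SH2 and SH3 on the horizontal axis. Dots are the 3 libraries of a group and the bar is the mean ± SD. HLA-B, HLA-C and TAPBP lie above SC in every hairpin library, as does HLA-F on few counts, TAP2 does so in SH2 alone, and HLA-E overlaps fully.

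Translational efficiency was taken as the change in footprints beyond the change in RNA, tested as an interaction over all 18 libraries. None of the 9 genes was called in SH2, in SH3 or between them by edgeR, where 3.90%, 0.686% and 0.0160% of 12531 genes were called. An unadjusted p under 0.05 was found for 2 of the 9 genes in SH2 (HLA-C and TAP2), 1 in SH3 (HLA-C) and 1 between the hairpins (TAP2). Over all genes 17.9%, 12.6% and 11.7% had such a p, so these counts are near the share over all genes. The DESeq2 Wald test called 1 of the 9 in SH2, TAP2, where it called 8.97% of the genes it gave an adjusted p, and none in SH3 or between the hairpins, where it called 3.83% and 2.73%.

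HLA-C had negative values in both hairpin groups, with log2 changes in efficiency of -0.47 (SE 0.20, adjusted p = 0.207, unadjusted p = 0.0276) in SH2 and -0.58 (SE 0.20, adjusted p = 0.201, unadjusted p = 0.00854) in SH3. TAP2 had 0.84 (SE 0.27, adjusted p = 0.0805, unadjusted p = 0.00457) in SH2 and -0.10 (SE 0.30, adjusted p = 0.942) in SH3, and DESeq2 gave 0.86 with adjusted p = 0.0279 in SH2. HLA-B was near 0 at -0.21 (SE 0.21, adjusted p = 0.654) and -0.097 (SE 0.21, adjusted p = 0.900). HLA-F had -0.96 (SE 0.59) and -0.92 (SE 0.61), where the errors leave room for no change or a large one. The other 5 genes ranged from -0.34 (NLRC5) to 0.22 (TAPBP) in SH2 and from -0.43 (TAP1) to 0.17 (TAPBP) in SH3. The summed heavy chains had -0.40 (adjusted p = 0.275) and -0.32 (adjusted p = 0.526).

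The ratio of footprints to RNA within a treatment describes how strongly an mRNA was occupied, and it is given as a description with no test. Input and footprint libraries were matched by replicate number for it. The means do not depend on this matching, but the SDs do. In SC, input library 1 deviated with footprint library 2 (r = 0.56) and against footprint library 1 (r = -0.48). Input library 2 of SC deviated with footprint library 1 (r = 0.45) and against footprint library 2 (r = -0.45). SH2 showed the same crossing, with r of 0.55 and 0.48 across numbers 1 and 2 and -0.30 within each. SH3 libraries went with their own numbers (r = 0.41, 0.28 and 0.20). The SDs are therefore uncertain, those of SC and SH2 most. In SC the mean log2 ratio was 1.34 ± 0.13 (SD, n = 3) for B2M, above that of 97.1% of 10335 genes, whose median was -0.19. HLA-E had 0.48 ± 0.28, HLA-B 0.11 ± 0.28 and HLA-C -0.11 ± 0.16. At the other end were TAPBP with -0.72 ± 0.46, TAP2 with -1.14 ± 0.50 and NLRC5 with -1.36 ± 0.052, the last above only 14.6% of genes. The light chain thus had more footprints per RNA than most genes and the activator fewer. In SH3 the HLA-C ratio was -0.68 ± 0.053 and that of HLA-B was -0.00048 ± 0.17. NLRC5 had -1.76 ± 0.53 in SH2 and -1.36 ± 0.18 in SH3.

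**Figure D3:**
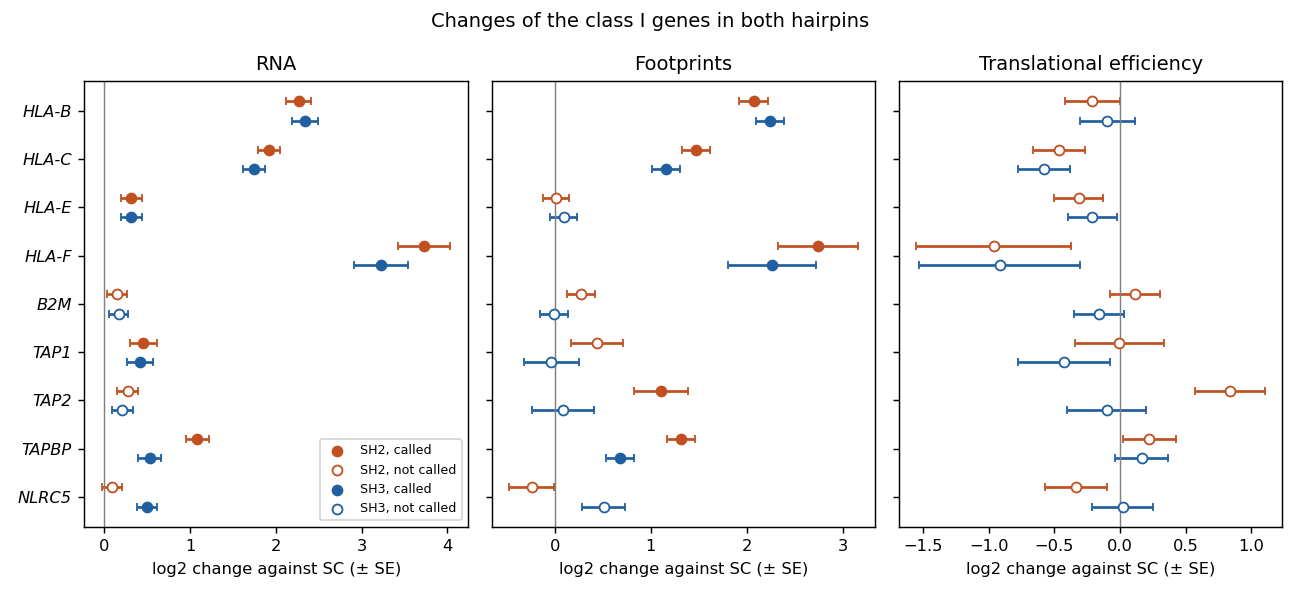
Log2 changes against SC with their standard errors (horizontal axis) for the 9 genes (vertical axis) in RNA, footprints and translational efficiency. Filled dots passed an adjusted p under 0.05 and open dots did not. HLA-B, HLA-C and TAPBP are filled in both hairpins in the first 2 panels, the filled HLA-F footprint dots are for a gene that entered that test only through the hairpin groups, and every dot is open for translational efficiency.

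SH2 and SH3 were also compared directly. In RNA, 1 of the 9 genes was called higher in SH2 (TAPBP) and 1 lower (NLRC5), where 39.3% of all genes were called (18.9% higher and 20.4% lower). TAPBP was higher in SH2 by 0.55 (SE 0.13, adjusted p = 0.00516), and NLRC5 differed by -0.41 (SE 0.12, adjusted p = 0.0134). HLA-B differed by -0.075 (SE 0.14, adjusted p = 0.702), HLA-C by 0.18 (SE 0.12, adjusted p = 0.262) and HLA-F by 0.50 (SE 0.23, adjusted p = 0.0983). The NLRC5 call was lost without SH2 replicate 2 (adjusted p = 0.0663), SH3 replicate 1 (0.0902) or SH3 replicate 3 (0.0570).

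In footprints, 23.8% of genes were called between the hairpins (12.1% higher in SH2 and 11.6% lower). TAP2 and TAPBP were higher in SH2 and NLRC5 lower. TAP2 differed by 1.01 (SE 0.30, adjusted p = 0.0233), TAPBP by 0.63 (SE 0.15, adjusted p = 0.00553) and NLRC5 by -0.75 (SE 0.24, adjusted p = 0.0313). TAPBP and NLRC5 thus differed in the same direction in both kinds of library. The TAP2 call was lost without SH2 replicate 2 (adjusted p = 0.0942), SH2 replicate 3 (0.0671), SH3 replicate 2 (0.0674) or SH3 replicate 3 (0.109). The NLRC5 call was lost without SH2 replicate 1 (adjusted p = 0.0992) or SH3 replicate 1 (0.0622), 2 (0.0960) or 3 (0.0654), and in DESeq2 (0.0591).

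HLA-B and HLA-C rose while HLA-E changed little, and the make-up of the heavy chain counts differed between SC and the hairpin groups. These shares are of counts, not per length, and are compared between treatments only. HLA-B made up 35.1% ± 2.47 (SD, n = 3) of the RNA counts of the 4 heavy chain genes in SC, 51.8% ± 1.43 in SH2 and 55.4% ± 0.915 in SH3. HLA-E made up 35.5% ± 2.77 in SC, 13.6% ± 0.633 in SH2 and 13.7% ± 0.312 in SH3. HLA-C held 29.2%, 34.1% and 30.5% on average, and HLA-F stayed under 1% in every library. In footprints HLA-B had 32.8% in SC, 55.3% in SH2 and 60.6% in SH3, and HLA-E had 43.1%, 17.5% and 18.1%.

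Relative to B2M, heavy chain counts were higher in every hairpin library. The summed HLA-B, HLA-C, HLA-E and HLA-F counts per B2M count were 0.759 to 0.875 in SC RNA, 1.94 to 2.72 in SH2 and 2.19 to 2.38 in SH3, geometric mean folds of 2.94 and 2.86. In footprints the same ratio was 0.321 to 0.387 in SC, 0.635 to 0.891 in SH2 and 0.817 to 1.16 in SH3, folds of 2.07 and 2.58. HLA-B per HLA-C count was 1.12 to 1.27 in SC RNA, 1.41 to 1.61 in SH2 and 1.76 to 1.91 in SH3, and 1.22 to 1.65, 2.01 to 2.21 and 2.80 to 3.09 in footprints. HLA-B per HLA-C count thus separated all 3 treatments in both kinds of library. Each of these comparisons without overlap gave a two-sided exact permutation p of 0.1, the smallest that 3 against 3 libraries allow, and 0.129 after Benjamini-Hochberg adjustment over the 18 ratio comparisons made. Heavy chains per B2M did not separate SH2 from SH3, with exact p = 0.8 in RNA and 0.3 in footprints.

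**Figure D4:**
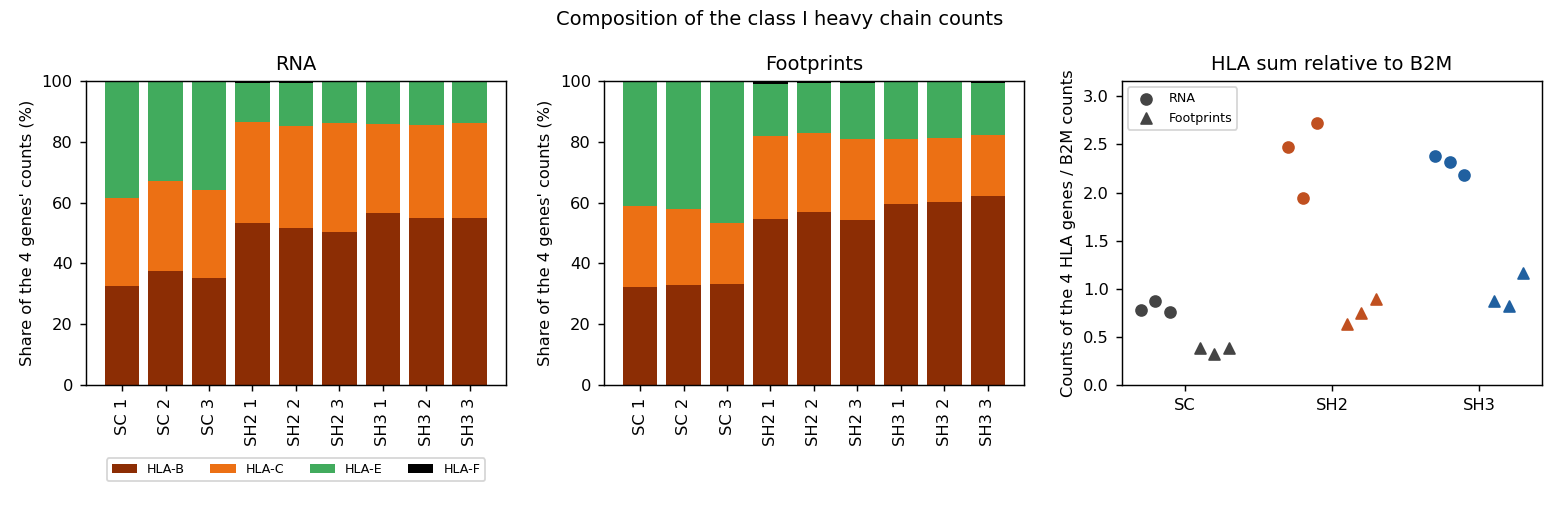
Stacked bars give each heavy chain gene's share, in percent, of the counts of the 4 genes in every RNA library (left) and footprint library (middle), and the right panel gives their summed counts per B2M count by treatment. The HLA-E share is lower and the HLA-B share higher in all hairpin libraries, and the ratio to B2M lies above SC in each of them.

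The other steps of the pathway were followed with lists chosen whole. Peptide supply covers the inducible proteasome subunits, the proteasome activator and the trimming peptidases. Of its 9 genes, SH2 had 4 RNAs called upward and none downward, and SH3 had 5 upward and 2 downward. Over all genes, 31.1% of RNAs were called upward and 30.4% downward in SH2, and 27.8% and 25.2% in SH3. PSMB9 rose by 1.12 (SE 0.16) in SH2 and 0.81 (SE 0.16) in SH3, and PSMB10 by 1.15 (SE 0.13) and 0.89 (SE 0.13), both being subunits that replace constitutive catalytic ones after interferon. PSMB8, the third inducible subunit, rose by 0.28 (adjusted p = 0.0469) and 0.39 (adjusted p = 0.0108). ERAP1, the aminopeptidase that trims peptides in the endoplasmic reticulum, rose by 0.82 and 1.29, and its relative ERAP2 did not pass the test, with 0.18 (adjusted p = 0.443) and -0.40 (adjusted p = 0.117). The 2 called lower in SH3 were LNPEP, with -1.20, and THOP1, with -0.45. The 3 constitutive subunits held no gene called higher, and PSMB5 alone was called lower, in SH2.

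In footprints the same list had 5 genes up and 1 down in SH2, against 2 up and 2 down in SH3. Over all genes, 21.0% of footprints were called upward and 23.2% downward in SH2, and 16.9% and 19.0% in SH3. PSMB10 footprints rose by 1.27 and 1.01 and those of ERAP1 by 0.80 and 0.95. Those called lower were THOP1, with -0.82 (adjusted p = 0.000338) in SH2 and -0.94 (adjusted p = 0.000204) in SH3, and LNPEP in SH3. LNPEP footprints had -1.67 (adjusted p = 9.01e-05) there. PSMB9 footprints rose by 1.17 in SH2, and in SH3 their change of 0.45 (adjusted p = 0.0730) did not pass. Loading chaperones, which fold heavy chains and edit their peptides, had 4 of 5 genes called higher in RNA in SH2 and 3 in SH3. The shares of all genes called higher in RNA were 31.1% and 27.8%. TAPBPL, the tapasin relative that edits peptides away from the transporter, rose by 1.40 (SE 0.20) and 1.11 (SE 0.20), and the lectin chaperones CANX by 0.53 and 0.74 and CALR by 0.46 and 0.46. TAPBPL had 12, 2 and 7 footprint counts in SC, 12, 22 and 15 in SH2 and 4, 17 and 10 in SH3. It passed the low-count filter there in 0 SC, 3 SH2 and 2 SH3 libraries, so no footprint call is given for it. Footprints of CANX and CALR did not pass in either group.

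Genes of the transcriptional control list went both ways. Of the 8 reported, 3 were called upward and 2 downward in SH2 RNA, beside 31.1% and 30.4% of all genes. In SH3 RNA 4 were called upward and 2 downward, beside 27.8% and 25.2%. With such shares the counts alone say little about the list. IRF1, an interferon-induced activator of class I genes, had 25.6, 33.1 and 26.7 CPM in SC, 95.2, 88.3 and 93.8 CPM in SH2 and 70.0, 69.1 and 66.1 CPM in SH3. Its libraries did not overlap between any of the 3 treatments, and it rose by 1.70 (SE 0.11, adjusted p = 3.71e-08) and 1.26 (SE 0.11, adjusted p = 9.52e-07). IRF1 footprints rose by 1.43 and 1.505. RFX5, the DNA-binding partner of NLRC5, had -0.22 (adjusted p = 0.0921) and fell by 0.55 (adjusted p = 0.000849) in SH3, whereas RFXANK rose by 0.52 and 0.74. The NF-Y subunits differed in direction, as NFYB fell by 0.77 and 0.63, while NFYA rose by 0.35 (adjusted p = 0.00605) and 0.59 (adjusted p = 0.000182).

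In RNA, the shares of all genes called were 31.1% upward and 30.4% downward in SH2, and 27.8% and 25.2% in SH3. The counts of called genes in the next 3 lists stand beside those shares. Of the 4 interferon gamma receptor and kinase genes, 2 were called higher in SH2 and 3 in SH3. IFNGR2 had 0.48 and 0.45, and JAK1 had 0.54 and 0.87. Among other class I-like genes, 5 of 7 were tested, SH2 having 2 called upward and 1 downward, and SH3 having 1 each way. MR1, which presents microbial vitamin metabolites, rose by 1.34 and 1.27, and FCGRT, the neonatal Fc receptor chain, fell by 0.47 and 0.69. All 5 genes of surface turnover were called in RNA in each hairpin group, 3 higher and 2 lower. SUSD6, TMEM127 and WWP2, a set known to direct class I to lysosomes, rose by 0.98, 1.28 and 0.74 in SH2 and by 0.81, 0.53 and 0.76 in SH3. The 2 called lower went the other way, MARCHF4 with -0.48 in SH2 and -1.88 in SH3, and MARCHF9 with -0.42 and -0.46.

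Class II genes, the counterpart pathway for peptides taken up from outside, had 4 of 8 RNAs called upward and 1 downward in SH2. In SH3 they had 0 upward and 3 downward. Of all genes, 31.1% were called upward and 30.4% downward in SH2 RNA, and 27.8% and 25.2% in SH3 RNA. CIITA, the class II relative of NLRC5, fell by 1.03 (adjusted p = 0.00427) and 1.35 (adjusted p = 0.000961). HLA-DPA1 RNA had only 7, 22 and 29 counts in SC, 35, 44 and 47 in SH2 and 8, 9 and 10 in SH3. It rose by 1.00 (adjusted p = 0.0239) in SH2 and fell by 1.10 (adjusted p = 0.0466) in SH3, where the libraries overlapped SC. The summed blood cell markers, which include the class II gene HLA-DRA, were also lower in SH3 than in SH2. HLA-DRA alone averaged 6.42 CPM in SH2 and 2.83 CPM in SH3, so that sum in part repeats the class II values. The part of blood cells in the class II values was not tested.

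**Figure D5:**
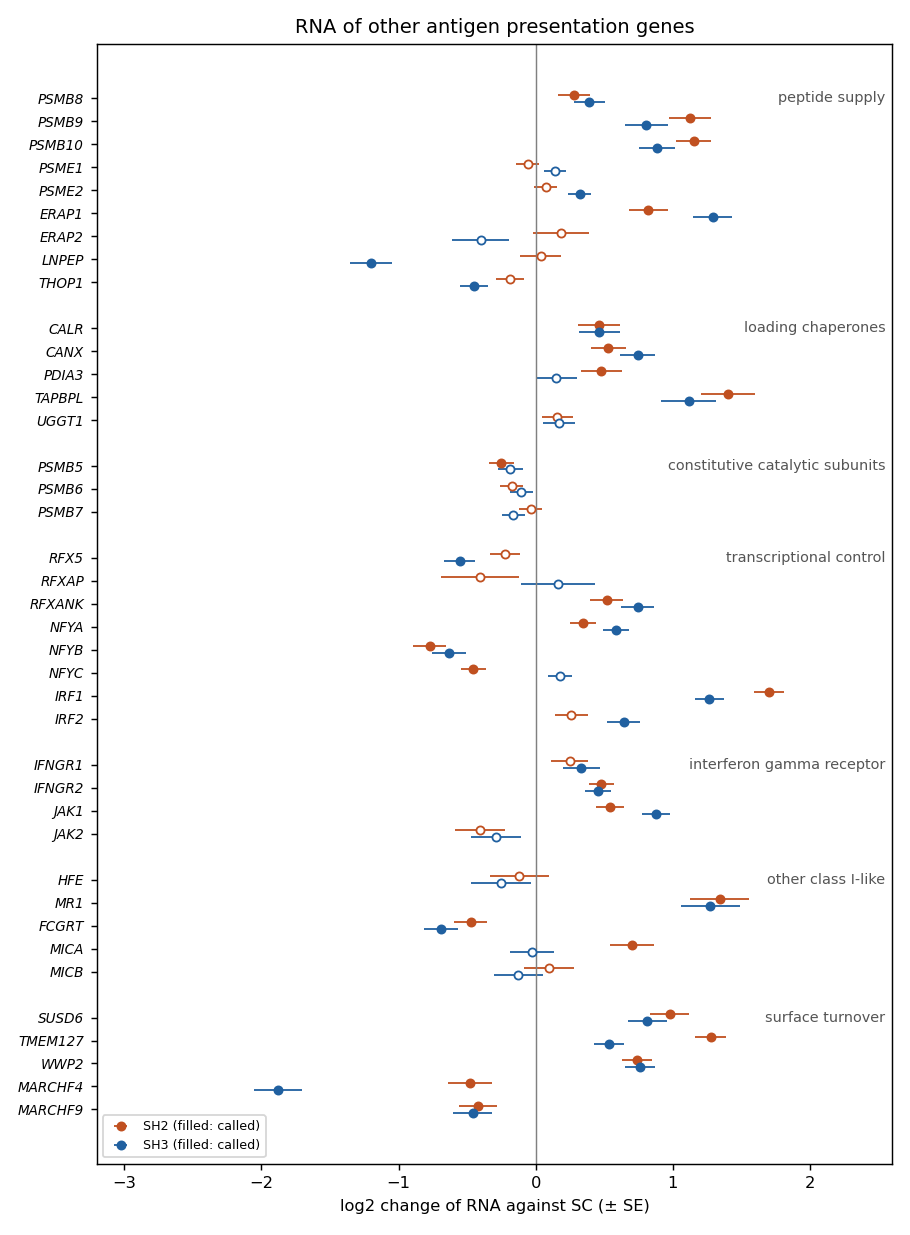
Log2 change of RNA against SC with its standard error (horizontal axis) for genes of 7 lists around the class I pathway (vertical axis). Filled dots passed an adjusted p under 0.05. IRF1, PSMB9, PSMB10, ERAP1 and TAPBPL lie to the right in both hairpin groups, and LNPEP and MARCHF4 lie far to the left in SH3.

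Across the 9 input libraries, the 9 genes fell into more than 1 pattern. These correlations of log2 CPM are descriptions over libraries that share their treatments, with no p. HLA-B went with HLA-C at a Pearson r of 0.992 and with HLA-F at 0.957, and HLA-E went with TAP1 at 0.964. HLA-B and B2M had 0.581, and TAP2 and NLRC5 had 0.107. Among 8152 other genes with a mean log2 CPM of 4 or more, those most like HLA-B were TLE1 (0.994), SLC4A11 (0.993) and SUPT5H (0.993). Those most like HLA-C were TMEM104 (0.997), PBXIP1 (0.996) and MGAT4B (0.995), and those most like HLA-F were PRPF38A (0.998), GSE1 (0.988) and MED15 (0.987). HLA-E was closest to HRH1 (0.970), TAP1 to CALR (0.982) and TAPBP to TMEM259 (0.997) and LGALS3BP (0.996). B2M, TAP2 and NLRC5 had nearest genes at 0.917 (HERPUD2), 0.944 (SLC39A6) and 0.966 (GON4L).

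The promoter letters shown first are set here beside the RNA calls as a description. HLA-B, HLA-C and HLA-F, called higher in both hairpin groups, each held at least 2 CCAAT matches. B2M, called in neither, held 1, and TAP1, called higher in both, held 1 at the edge of its window. TAPBP rose in both hairpin groups with no CCAAT match in the window. GAAANNGAAA was present in B2M, TAP1 and TAP2 as well as in TAPBP and HLA-F. TGACG was present in HLA-B, HLA-C, B2M and TAP2 and absent from the windows of HLA-F, TAP1 and TAPBP. The motifs were chosen with earlier results known, and any link between matches and changes was not tested.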

How the data were processed

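Cytoplasmic RNA and ribosome footprints of MDA-MB-231 cells were sequenced in 18 libraries, and the deposited whole-series table of 17017 genes was used. Its raw values are counts per gene deposited by the authors. Bowtie 1.2.2 and DESeq2 are named in the submitters' processing notes, while the genome build, annotation and treatment of reads matching several genes are not given in the sources used here. The normalised signal, log2 fold changes and adjusted p-values in the same table are the authors' deposited values per the file headers, and each deposited signal is its count divided by a constant for its library. The deposited efficiency columns of SH2 and SH3 were identical for all 17017 genes and were not used.

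From the counts, edgeR 4.0.16 (R 4.3.3) was run with filterByExpr (minimum count 10), TMM scaling and quasi-likelihood tests, two-sided, with Benjamini-Hochberg adjustment over all genes tested. RNA was fitted over 9 libraries, footprints over 9, and translational efficiency as an interaction over 18. The procedure was tested on simulated data. Standard errors are the log2 change divided by the root of F. Alternatives were DESeq2 1.42.0 (size factors and Wald test), plain totals, no filter, a threshold of 0.01, a replicate block, only the treatments compared, each library left out, and the heavy chain counts summed. All 9 genes are named, with, from each pathway list, the 3 lowest adjusted p-values among genes called in both hairpins and PSMB8, PSMB9, PSMB10, ERAP1, ERAP2, IRF1, RFX5 and CIITA whatever their values. A gene of the transcriptional control list is not reported here. PSMB5, LNPEP, THOP1, MARCHF4, MARCHF9 and NFYA were named after their values were seen. Genes, lists and promoter motifs were chosen with earlier results of these data known. Footprint density per codon was not computed because coding lengths were not used here.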

Additional observations from a re-analysis of the deposited data

Results flagged for a closer look

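Between the hairpin groups, 5 changes differed by the direct test of SH2 against SH3 in edgeR (adjusted p under 0.05, 3 libraries a group). Over all genes tested, the same comparison called 39.3% in RNA and 23.8% in footprints, so such calls were common. TAPBP was higher in SH2 in RNA by 0.552 on the log2 scale (adjusted p = 0.00516) and in footprints by 0.632 (adjusted p = 0.00553). NLRC5 was lower in SH2, with -0.410 in RNA (adjusted p = 0.0134) and -0.750 in footprints (adjusted p = 0.0313). TAP2 footprints were higher in SH2 by 1.01 (adjusted p = 0.0233), on 12 to 57 counts a library in the hairpin groups. Of 13 alternatives, the call was lost in 4 for NLRC5 RNA, 6 for NLRC5 footprints and 5 for TAP2 footprints.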

How the results depend on the processing

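Of 81 values (9 genes in 9 comparisons), 27 were called. Without the 2 of HLA-F footprints, for which no call is given, 25 were left, 18 of these kept their call under all 13 alternatives and none changed sign. HLA-F had no value for SH3 footprints with only the treatments compared and no adjusted p for efficiency in DESeq2. Counts of genes called moved as follows. At a threshold of 0.01, HLA-E and TAP1 lost their RNA calls in both SH2 and SH3. Leaving out a library gave 4 to 7 genes called in SH2 RNA and 5 to 7 in SH3 RNA. Between the hairpins, 1 gene was called in RNA and 1 in footprints at 0.01, and leaving out a library gave 1 to 2 in each. DESeq2 called 1 gene for efficiency in SH2. HLA-E in RNA lost its SH3 call under DESeq2 size factors, the DESeq2 test and a fit of only the treatments compared, which also ended its SH2 call and that of TAP1 in SH3. TAP2 RNA was called under plain totals (0.37 in SH2, 0.30 in SH3) and in SH2 without SC replicate 1 (adjusted p = 0.0404), and HLA-C RNA between hairpins without SH2 replicate 2 (adjusted p = 0.0399). The replicate block left the counts of called genes at 6 and 7 in RNA for SH2 and SH3. Without HLA-F the counts stayed at 4 and 3 in footprints, and they stayed at 0 in efficiency. Between the hairpins they stayed at 2, 3 and 0. Same-numbered libraries deviated together with r from -0.059 to 0.408 in RNA and -0.11 to 0.285 in footprints. Of 9 each, 7 and 5 were closest to their own number. The main fits were planned without taking the numbers as pairs, and these values were not the reason. The replicate block in RNA and footprints did take them as pairs. The footprint-to-RNA ratios and the replicate block for efficiency did match input and footprint libraries by number. Between those 2 kinds, same-numbered libraries had r from -0.48 to 0.48, and 5 of 9 were closest to their own number. In SC and SH2, numbers 1 and 2 were each closest to the other number. Values that rest on this matching, the replicate block for efficiency included, are uncertain there. Values near 0 changed sign with no call. Between the hairpins in RNA, HLA-E was 0.012 with DESeq2 size factors, 0.0046 with plain totals, 0.0086 in DESeq2 and 0.0097 with only the treatments compared, and the summed heavy chains were 0.020 beside HLA-B at -0.075. For SH3 footprints, B2M was 0.0031, 0.067, 0.0048 and 0.0043 in the same order, and TAP1 was 0.043 with plain totals and 0.0022 with the replicate block. For efficiency, NLRC5 in SH3 was -0.0058 with plain totals, and HLA-F between hairpins 0.0069 with the replicate block. Leaving out libraries, RNA differences between hairpins ran from -0.23 to 0.063 (HLA-B), -0.11 to 0.11 (HLA-E), -0.11 to 0.097 (B2M) and -0.095 to 0.19 (TAP1). Footprint changes ran from -0.060 to 0.12 (HLA-E, SH2), -0.086 to 0.12 (B2M, SH3), -0.30 to 0.34 (TAP1, SH3), -0.092 to 0.27 (TAP2, SH3) and -0.16 to 0.021 (HLA-E, between hairpins). Efficiency in SH2 ran from -0.48 to 0.056 (HLA-B), -0.0016 to 0.20 (B2M), -0.44 to 0.39 (TAP1) and -0.026 to 0.39 (TAPBP). In SH3 it ran from -0.27 to 0.023 (HLA-B), -0.37 to 0.045 (TAP2), -0.087 to 0.34 (TAPBP) and -0.093 to 0.10 (NLRC5), and between hairpins from -0.38 to 0.15 (HLA-B), -0.12 to 0.30 (HLA-C), -0.27 to 0.10 (HLA-E), -0.24 to 0.23 (HLA-F) and -0.13 to 0.20 (TAPBP). The causes were not tested. With plain totals none of 27 footprint-to-RNA ratios moved by its SD. Footprint density was not run. Footprint depth limits HLA-F, TAP2 and NLRC5 most.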
